A study of Mus musculus with 36 samples.

Results

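The right lungs of 9 month mice were examined 1 day after the left lung had been taken out by pneumonectomy (PNX), against those left lungs of the same animals. The comparison holds 6 of the 36 arrays of the series, which are all the arrays labelled 9 months and day 1. These are 3 right lungs and 3 left lungs from pools 4, 5 and 6, and each pool joins RNA of 2 mice, so that the spread between pools is a spread between pairs of animals.

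All mice of the series were female C57BL6 mice with no allele or drug under study. By the methods they were given anaesthetics and ampicillin for surgery, and the analgesic buprenorphine after it. The right lung after PNX is the organ that remained, taken 1 day after surgery from 9 month mice. The left lung is the control, from the same 9 month mice on the day of surgery. The same pair of lungs was taken from 3 month mice (pools 1, 2 and 3), and from further 9 month mice whose right lung was taken on day 3 (pools 10, 11 and 12) or day 7 (pools 16, 17 and 18). Whole lung RNA was hybridised to MouseWG-6 v2 BeadChips of Illumina with 45281 probes. By the methods the right lungs were removed en bloc and flooded with a preserving solution through the trachea, whereas the left lungs were placed in it after excision. The left lungs lay on a chip and the right lungs of the same day on another, and no sham-operated mice were hybridised. Operation, analgesic, lung side, time, collection and chip therefore cannot be told apart. On each chip the 9 month pools lay in positions next to each other and the 3 month pools in the others, so age and position cannot be told apart either.

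The 75th percentile of probe intensity before normalization was between 309 and 339 on the 3 right lung arrays, against 126 to 170 on the 3 left lung arrays. The small number of arrays limits how precise any value can be. The share of probes detected over background was between 44.5% and 46.7% in the right lungs and between 43.2% and 45.2% in the left lungs. The defining transcripts of the alveolar lining, those of surfactant proteins and of type I cells, were detected on all 6 arrays, as the tissue label requires.

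In mice the lung that remains after PNX fills the empty side of the chest and grows new alveolar tissue over the following weeks. The remaining lobes are stretched and receive the whole output of the right heart from the moment of surgery. Growth of this kind draws on inflammatory cells, on fibroblasts that lay down collagen and elastin, and on the division of epithelial and endothelial cells.

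Of 15795 probes detected on all arrays, 3423 (21.7%) differed between right lung after PNX and left lung, 1523 of them (9.64%) higher and 1900 (12.0%) lower in the right lung. To be called, a probe needed a 1.5-fold change or more and a p under 0.05 in limma after Benjamini-Hochberg adjustment. Taken as genes with 1 probe each, 1097 of 11835 (9.27%) rose and 1495 (12.6%) fell, and these shares are the background against which each gene group is read here. The median change over all genes was −0.06 on the log2 scale. Of the 3423 called probes 3398 had the same sign in all 3 pools. Right and left lungs did not overlap for 3334 of the called probes, and for 8095 of all 15795 probes tested (51.3%). Both counts of called probes follow in large part from the call, which used the same ratios, and are no test. The log2 ratios of any pair of pools correlated across probes at 0.735 to 0.743, a description of these arrays, since genes are not independent replicates. The median SD of the ratio between pools was 0.213.

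Acute phase and complement transcripts rose. Of 15 genes measured, 8 rose and 0 fell, with a median log2 change of 0.62. Saa3, a serum amyloid A protein made locally in inflamed tissue, had the largest change of any gene detected on all arrays. Its log2 intensity was 12.42, 12.30 and 12.90 in the right lungs of pools 4, 5 and 6, against 7.44, 7.76 and 7.73 in the left lungs. All 3 right lungs lay far above all 3 left lungs, and Saa3 rose 29.8-fold (log2 4.90, standard error 0.25, adjusted p = 9.23e-09). Serpina3n, a protease inhibitor of the acute phase, had 14.40, 14.40 and 14.49 in the right lungs, against 11.92, 11.89 and 12.14 in the left lungs, with hardly any spread within a lung and no overlap between them. It rose by a log2 of 2.45 (standard error 0.15, adjusted p = 2.02e-08). Cfb, factor B of the alternative complement pathway, rose by 2.09, Lcn2, an iron-sequestering protein, by 1.33, Lrg1 by 1.24, C4b by 0.84 and C3 by 0.62. Cp, the copper carrier ceruloplasmin, rose by 1.05 on the probe chosen, while its other probes reached down to −0.54. Hp, haptoglobin, and Itih4 did not pass, with changes of −0.17 and −0.56.

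Several receptors and chemokines changed. None of the 8 cytokine genes measured in all lungs passed, with a median of 0.05 that was −0.20 without pool 6, and Il1b, interleukin 1 beta, had a change of −0.55 (adjusted p = 0.191). Of 23 cytokine receptors and feedback inhibitors 7 rose and 2 fell. Tnfrsf12a, the receptor of the cytokine TWEAK, had a log2 intensity of 11.88, 13.02 and 12.25 in the right lungs, against 10.06, 10.05 and 10.07 in the left lungs. The left lungs were nearly identical and pool 5 gave the highest right lung. Tnfrsf12a rose by 2.33 (standard error 0.28, adjusted p = 1.51e-05), and Tnfrsf1a, the main receptor of TNF, by 1.69. Socs3, an inhibitor that cytokine signalling through STAT3 induces, rose by 1.00 and Osmr, the receptor of oncostatin M, by 0.81. Of 17 chemokines 8 rose and 2 fell. Cxcl13, which attracts B cells, had 11.00, 10.40 and 10.42 in the right lungs, against 7.80, 8.44 and 8.72 in the left lungs, a rise of 2.29 with a wide standard error of 0.54. Cxcl1, which attracts neutrophils, rose by 1.58 and Ccl9 by 1.43. Without pool 4, Cxcl1 no longer passed (1.20, adjusted p = 0.0637). Ccl5, a chemokine of T and NK cells, fell by 0.92, and without pool 5 its change was −0.56 (adjusted p = 0.0808).

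**Figure D1:**
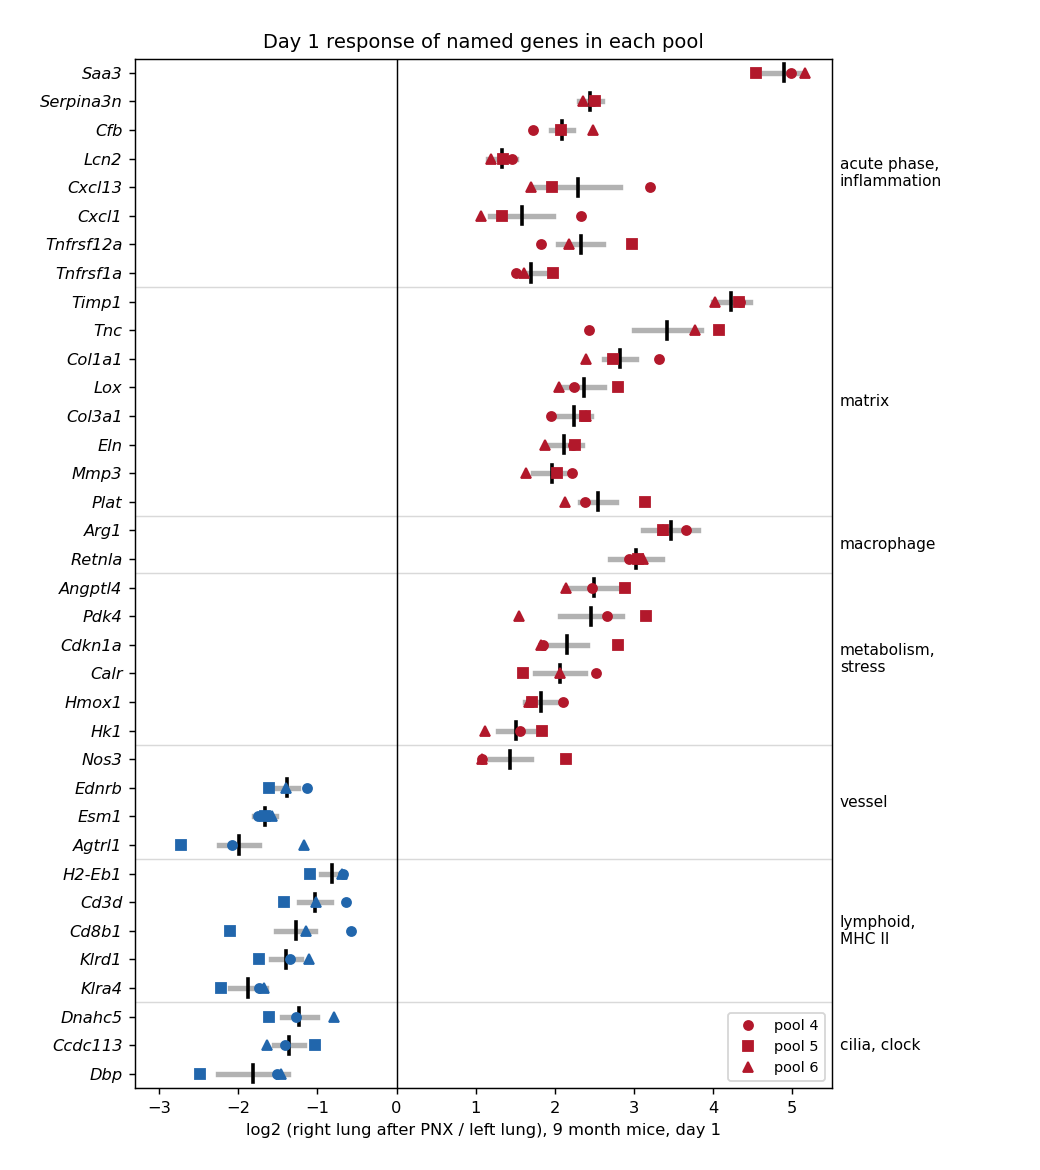
Log2 ratio of right lung after PNX to left lung on day 1 for 36 named genes in 9 month mice, with circles for pool 4, squares for pool 5, triangles for pool 6, red for genes that rose and blue for genes that fell. The black tick is the mean and the grey bar its standard error from limma, and Saa3 at 4.90 and Timp1 at 4.23 lie farthest to the right while Agtrl1 at −1.99 lies farthest to the left.

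Genes of the extracellular matrix rose in most of their families. Of 11 interstitial collagens 8 rose and 0 fell, with a median of 1.13, and between 7 and 8 rose under every alternative processing. Col1a1, which encodes part of fibrillar collagen I, had a log2 intensity of 11.96, 11.43 and 11.56 in the right lungs, against 8.64, 8.70 and 9.16 in the left lungs. Right and left lungs were separated by more than 2 log2 units, and Col1a1 rose 7.05-fold (log2 2.82, standard error 0.20, adjusted p = 1.49e-07). Col3a1, the type III chain, had 9.45, 9.79 and 9.94 in the right lungs, against 7.50, 7.40 and 7.55 in the left lungs, a rise of 2.24. The type VI chains Col6a2, Col6a1 and Col6a3 rose by 1.56, 1.13 and 1.13, and Col1a2, the partner chain of Col1a1, rose by 0.60 only.

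Of 19 genes of elastic fibres and of the enzymes that crosslink them, 9 rose and 2 fell. Eln, elastin, had 11.32, 11.60 and 10.69 in the right lungs, against 9.09, 9.35 and 8.82 in the left lungs. Lox, which crosslinks collagen and elastin, had 11.49, 11.94 and 11.23 in the right lungs, against 9.25, 9.13 and 9.18 in the left lungs. Neither gene overlapped between the lungs, with a rise of 2.12 for Eln (adjusted p = 4.18e-06) and of 2.36 for Lox (adjusted p = 6.16e-06). Fbn1, the fibrillin of microfibrils, rose by 1.92, Fbln2 by 1.85 and Loxl1, which acts on elastin, by 1.35. Fbln1 fell by 0.64 and Ltbp3 by 0.61. Of 19 basement membrane genes 6 rose and 1 fell. Col18a1 rose by 1.78 and the type IV chains Col4a2 and Col4a1 by 1.36 and 1.32, while Lama3, a laminin chain of epithelium, fell by 0.96.

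Of 21 matrix proteases and inhibitors 7 rose and 1 fell. Timp1, an inhibitor of matrix metalloproteinases, had a log2 intensity of 12.90, 13.29 and 13.14 in the right lungs, against 8.56, 8.96 and 9.12 in the left lungs. Among genes detected on all arrays, no other but Saa3 and the squamous gene Rptn, described below, exceeded its rise of 18.7-fold (log2 4.23, standard error 0.23, adjusted p = 9.23e-09). Mmp3, a stromelysin, rose by 1.96, Mmp14, a membrane-bound collagenase, by 1.24, and the aggrecanase relatives Adamts15 and Adamts9 by 1.68 and 1.60. Mmp9, a gelatinase of neutrophils, did not pass (0.16, adjusted p = 0.634). Among matricellular proteins, which sit in the matrix without bearing load, 3 of 21 rose and 3 fell. Tnc, tenascin C of wound repair, had 10.03, 11.13 and 10.83 in the right lungs, against 7.60, 7.07 and 7.05 in the left lungs. It was high in all 3 right lungs, least so in pool 4, and rose by 3.42 (standard error 0.43, adjusted p = 1.89e-05).

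Of 19 genes of coagulation and fibrinolysis 7 rose and 1 fell. Plat, the tissue plasminogen activator that opens fibrin clots, had a log2 intensity of 12.79, 13.82 and 12.92 in the right lungs, against 10.41, 10.69 and 10.79 in the left lungs. Pool 5 was again the highest and the lungs did not overlap (log2 2.55, standard error 0.23, adjusted p = 1.27e-06). Plau, the urokinase form, rose by 1.07 and its receptor Plaur by 0.84. F13a1, the transglutaminase that stabilises fibrin, rose by 1.12. Contractile transcripts rose as well, 7 of 18 smooth muscle genes against 1 that fell. Tagln, transgelin, had 9.12, 9.10 and 8.94 in the right lungs, against 6.84, 7.33 and 7.44 in the left lungs, a rise of 1.85. Actg2 rose by 1.48 and the actin crosslinker Flna by 1.44. Mylk, the myosin light chain kinase, fell by 0.63 on the probe chosen, and its highest probe stood at 0.18.

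Of 14 genes listed for macrophages in the repair state 5 rose and 1 fell. RNA of whole lungs does not show which cells carried them. Of 20 monocyte and macrophage markers 5 rose and 2 fell, with a median of 0.04. Arg1, an arginase of these macrophages, had a log2 intensity of 10.47, 9.67 and 10.86 in the right lungs, against 6.81, 6.31 and 7.49 in the left lungs. Pool 5 was lowest in either lung, so that the 3 ratios of Arg1 differed by 0.17 (SD) and the rise was 11.0-fold (log2 3.46, standard error 0.35, adjusted p = 2.93e-06). Retnla, which encodes a secreted protein and is on the same list, had 14.26, 14.01 and 14.30 in the right lungs. In the left lungs it had 11.33, 10.96 and 11.18, a rise of 3.03. Fn1, fibronectin, rose by 1.28, Ccl17 by 1.13 and Spp1, osteopontin, by 1.10. Slc7a2, an arginine transporter, fell by 0.78.

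Stress and metabolic genes were among those that rose. The response to unfolded proteins raises chaperones of the endoplasmic reticulum, and many of them carry in their promoters the element ERSE, written as CCAAT and CCACG with 9 bases between them. Of 22 genes of this group 9 rose and 1 fell, with a median of 0.45. Calr, calreticulin, had 11.51, 10.54 and 11.23 in the right lungs, against 8.99, 8.94 and 9.15 in the left lungs, a rise of 2.06 (standard error 0.31, adjusted p = 9.66e-05). Hyou1 rose by 1.18, Hspa5, the chaperone BiP, by 1.07, and Pdia6, a disulfide isomerase, by 0.86. Hsp90b1, the chaperone GRP94, changed by 0.54 (adjusted p = 0.00527), which is under the fold threshold. Ddit3, the factor CHOP of cell death under this stress, fell by 0.82.

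The promoters of 4 of these genes that hold ERSE are shown, with its letters in capitals. Other tested genes hold it too. Each window of 300 bases runs 5′ to 3′ on the strand of its gene and ends shortly after the transcription start, in RefSeq of build GRCm38.p6. They lie at chr8:84846882-84847181 on the minus strand (Calr), chr2:34771840-34772139 on the plus strand (Hspa5), chr12:17266339-17266638 on the plus strand (Pdia6) and chr10:86705395-86705694 on the minus strand (Hsp90b1).
Calr: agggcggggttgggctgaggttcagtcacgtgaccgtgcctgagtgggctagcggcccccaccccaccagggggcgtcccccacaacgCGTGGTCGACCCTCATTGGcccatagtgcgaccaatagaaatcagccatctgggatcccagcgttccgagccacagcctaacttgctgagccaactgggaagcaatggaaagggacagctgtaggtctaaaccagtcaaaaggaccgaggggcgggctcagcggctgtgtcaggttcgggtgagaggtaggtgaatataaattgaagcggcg
Hspa5: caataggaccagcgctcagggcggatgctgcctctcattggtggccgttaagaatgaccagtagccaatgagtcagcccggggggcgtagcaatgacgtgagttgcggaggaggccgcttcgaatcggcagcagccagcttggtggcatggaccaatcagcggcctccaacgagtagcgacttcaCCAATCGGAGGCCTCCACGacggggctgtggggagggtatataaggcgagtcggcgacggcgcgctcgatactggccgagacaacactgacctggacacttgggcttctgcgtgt
Pdia6: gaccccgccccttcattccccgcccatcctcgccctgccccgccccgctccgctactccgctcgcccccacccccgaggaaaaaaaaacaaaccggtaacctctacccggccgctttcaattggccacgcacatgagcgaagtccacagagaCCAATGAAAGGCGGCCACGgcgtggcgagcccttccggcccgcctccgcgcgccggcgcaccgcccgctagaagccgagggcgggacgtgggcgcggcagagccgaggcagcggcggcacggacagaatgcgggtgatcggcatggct
Hsp90b1: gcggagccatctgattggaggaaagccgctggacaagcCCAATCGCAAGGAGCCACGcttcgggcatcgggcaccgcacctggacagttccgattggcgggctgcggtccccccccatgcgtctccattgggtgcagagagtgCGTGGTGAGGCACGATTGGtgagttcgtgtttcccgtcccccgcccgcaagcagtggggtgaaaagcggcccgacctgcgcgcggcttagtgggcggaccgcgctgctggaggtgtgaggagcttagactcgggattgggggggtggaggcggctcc
The match begins 162 bases before the start in Calr, where it reads on the opposite strand, 65 bases before it in Hspa5 and 98 bases before it in Pdia6. Hsp90b1 has a match at 212 bases on its own strand and another at 107 bases on the opposite strand. On both strands the letters were found in 39 of 32851 promoter windows (0.119%). Of 7824 genes tested here that have a window, 14 held a match, of which 4 rose (28.6%) and 1 fell, against 8.86% that rose among the genes without a match. The 4 were Calr, Hspa5, Pdia6 and Zfp57, and Acacb fell. Among those with a match that were not called were Hsp90b1 at 0.54, Creld2 at 0.43, Dnajc3 at 0.33, Ero1b at 0.12 and Syvn1 at −0.16. A match is a description of letters and not a shown binding site.

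Of 22 genes of the hypoxia response and glycolysis 8 rose and 0 fell. Hk1, hexokinase 1, had 8.42, 9.38 and 8.48 in the right lungs, against 6.86, 7.55 and 7.36 in the left lungs, a rise of 1.51. Hif1a, the oxygen-regulated factor, rose by 1.39, and Pgk1 of glycolysis by 1.10. Without pool 5 the change of Hif1a was 1.04 (adjusted p = 0.111). Of 20 antioxidant genes of the NRF2 program 4 rose, led by Hmox1, heme oxygenase 1, with 10.57, 10.03 and 10.04 in the right lungs, against 8.46, 8.32 and 8.37 in the left lungs. It rose by 1.83 without overlap of the lungs (adjusted p = 8.82e-06). Of 21 genes of ribosome biogenesis 7 rose and 0 fell, with Srm, which makes spermidine, at 1.60 and Nol5 at 1.42. Of 17 genes on the list of cholesterol synthesis 6 rose and 1 fell, and Sqle, a squalene epoxidase, rose by 0.84.

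Of 12 genes that glucocorticoids are known to induce, 5 rose and 0 fell, while the median of the list was −0.19, and 0.11 without pool 6. Angptl4, an inhibitor of lipoprotein lipase, had a log2 intensity of 12.72, 13.06 and 12.56 in the right lungs, against 10.26, 10.17 and 10.43 in the left lungs. Pdk4, a kinase that holds back glucose oxidation, had 10.55, 10.87 and 9.78 in the right lungs, against 7.89, 7.72 and 8.24 in the left lungs. The lungs did not overlap for either gene, which rose by 2.50 (Angptl4) and 2.45 (Pdk4). Fkbp5 rose by 1.62, Mt1 by 1.25 and Sgk1 by 0.76, and Fkbp5 did not pass without pool 5 (1.14, adjusted p = 0.0694). The other 7, among them Tsc22d3 and Per1 at −0.36 and −0.29, lay between −0.38 and −0.18. The clock output genes Dbp and Gm129 fell by 1.81 and 1.16, and the other 9 of 11 clock genes did not pass. Without pool 5 the change of Dbp was −1.48 (adjusted p = 0.0536). Hours of day at which lungs were taken are not given in the sources used here.

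**Figure D2:**
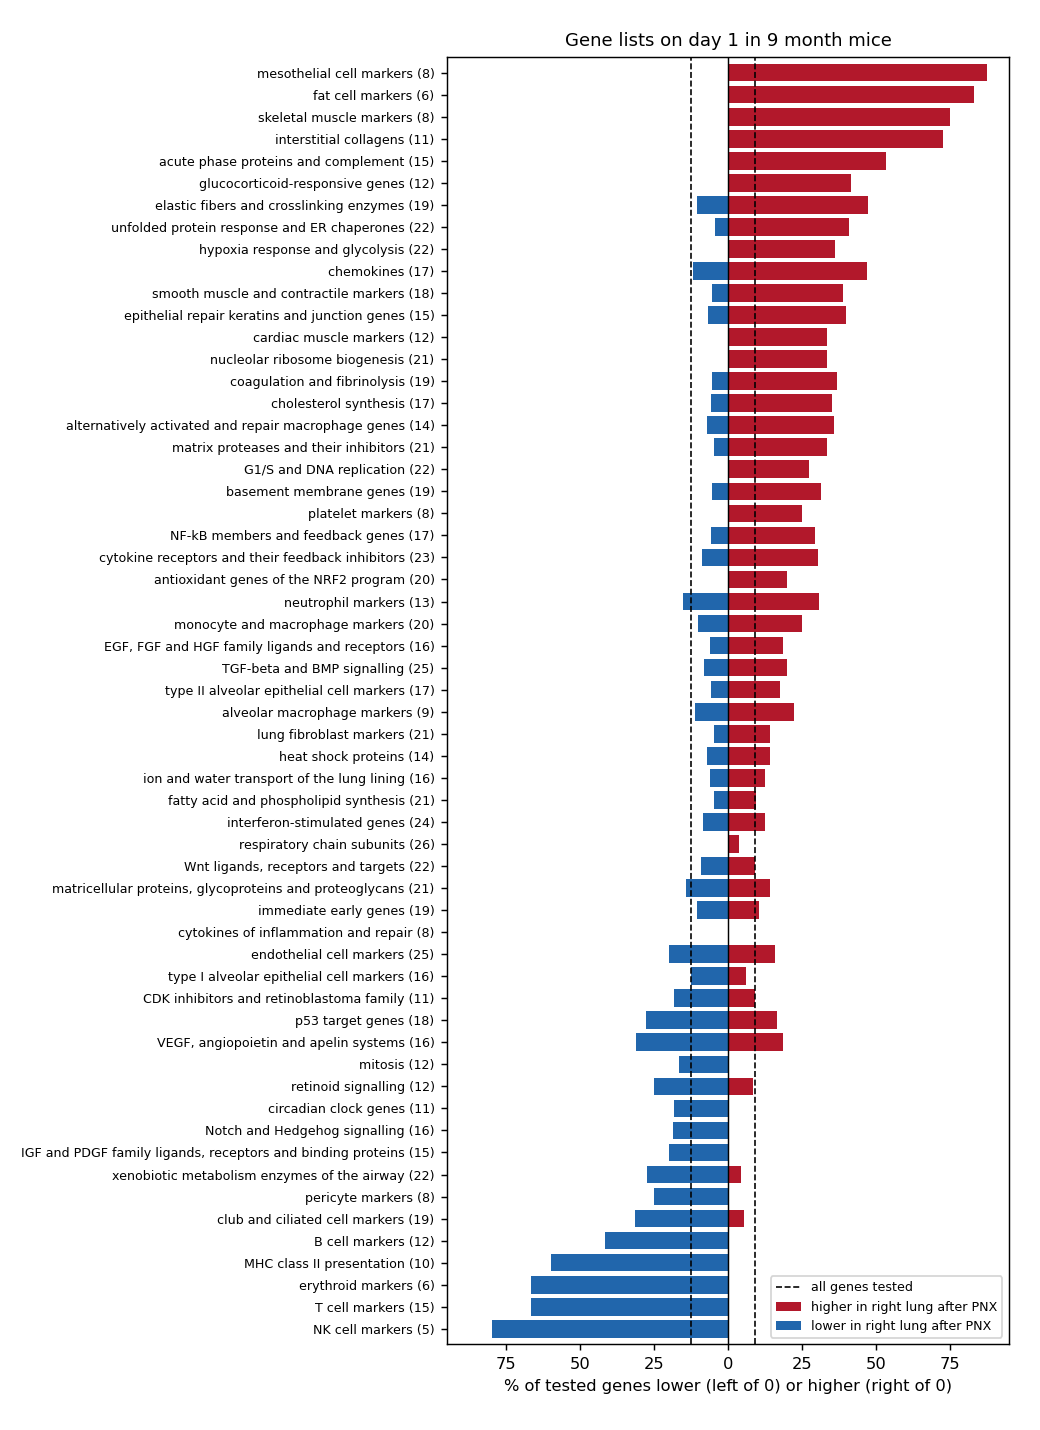
Percent of the tested genes of each list that rose (red, right of 0) or fell (blue, left of 0) in right lungs after PNX of 9 month mice on day 1, with the number of genes tested in parentheses and dashed lines at the shares over all genes, 9.27% and 12.6%. Mesothelial, fat and skeletal muscle markers and interstitial collagens reach farthest to the right, and NK cell, T cell and erythroid markers farthest to the left.

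Genes of DNA replication rose in part, and those of mitosis did not. Of 22 genes of the G1/S transition and replication 6 rose and 0 fell, with a median of 0.40. Mcm6, a subunit of the replicative helicase, had a log2 intensity of 10.80, 10.64 and 10.91 in the right lungs, against 9.74, 9.68 and 9.73 in the left lungs, a rise of 1.07 (standard error 0.14, adjusted p = 2.14e-05). Tk1, thymidine kinase, rose by 1.23, with ratios of 2.23, 0.62 and 0.83 in pools 4, 5 and 6, and did not pass without pool 4 (0.72, adjusted p = 0.0542). Of 12 mitosis genes 0 rose and 2 fell. Mki67, the antigen of dividing cells, had 8.03, 7.60 and 7.75 in the right lungs, against 7.64, 7.46 and 7.73 in the left lungs, with overlap and a change of 0.18 (adjusted p = 0.414). Top2a, a topoisomerase of chromosome segregation, had a change of 0.19. Cenpa, the centromeric histone, fell by 1.00 and Nusap1, a spindle protein, by 0.83, the second not without pool 5 (−0.60, adjusted p = 0.0532).

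Cdkn1a, the p21 inhibitor of cyclin-dependent kinases, had a log2 intensity of 12.39, 13.26 and 12.31 in the right lungs, against 10.54, 10.47 and 10.48 in the left lungs. The left lungs were alike and pool 5 gave the highest right lung, with a rise of 2.16 (standard error 0.25, adjusted p = 1.05e-05). Trp53, which encodes p53, had 10.37, 10.47 and 10.48 in the right lungs, against 9.62, 9.67 and 9.64 in the left lungs, a rise of 0.80. Of 18 genes on the list of p53 targets 3 rose, namely Cdkn1a, Trp53 and Phlda3, and 5 fell, among them Bbc3, the cell death factor PUMA, by 0.94 and Sesn1 by 0.90 on the probe chosen, its other probe standing at −0.05.

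Most T and NK cell genes fell. Of 15 T cell genes 10 fell and 0 rose, with a median of −0.71. Cd3d, a chain of the T cell receptor complex, had a log2 intensity of 9.15, 8.56 and 9.09 in the right lungs, against 9.79, 9.98 and 10.11 in the left lungs. Cd8b1 of cytotoxic T cells had 9.86, 8.60 and 9.59 in the right lungs, against 10.43, 10.70 and 10.73 in the left lungs. The lungs did not overlap, pool 5 gave the lowest right lung for either gene, and the changes were −1.03 (Cd3d) and −1.27 (Cd8b1, adjusted p = 6.10e-04). Fewer cells of a type and less RNA per cell cannot be told apart in RNA of whole lungs, here and in what follows. Of 5 NK cell genes 4 fell. Klra4, an inhibitory receptor, had 6.94, 6.48 and 7.28 in the right lungs, against 8.67, 8.69 and 8.96 in the left lungs, a change of −1.87 (standard error 0.23, adjusted p = 1.66e-05). Nkg7, a granule protein, fell by 1.42 and the receptor Klrd1 by 1.40.

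Of 10 genes of MHC class II presentation 6 fell and 0 rose, and without pool 5 only 3 fell. H2-Eb1, a class II beta chain, had 13.09, 12.68 and 12.99 in the right lungs, against 13.76, 13.77 and 13.68 in the left lungs, a change of −0.82. H2-DMb2, which loads peptides, fell by 0.91 and Ciita, the master regulator of these genes, by 0.69. Of 12 B cell genes 5 fell, Fcer2a, Cd22 and Faim3 by 0.93, 0.92 and 0.84, and without pool 5 none did. Erythroid genes fell, 4 of 6, led by the band 3 anion exchanger Slc4a1 at −1.75. Summed intensity of the listed T cell markers was 7956, 5765 and 7580 in the right lungs, against 9495, 11946 and 11852 in the left lungs.

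Neutrophil genes divided. Of 13 measured, 4 rose, namely Slpi, Ltf, Lcn2 and Csf3r (1.41, 1.33, 1.33 and 0.98), of which epithelium also expresses Slpi and Lcn2, and Csf3r disagreed between probes (lowest −0.02). Fpr2, a formyl peptide receptor, fell by 0.76, which it did not without pool 5. S100a9, a calcium-binding protein of neutrophil cytosol, had 13.20, 12.51 and 13.52 in the right lungs, against 12.61, 13.02 and 12.88 in the left lungs, with overlap and a change of 0.24 (adjusted p = 0.487). The summed intensity of all listed neutrophil markers was nonetheless higher in each right lung, at 84414, 70267 and 91508, against 41281, 53074 and 53323 in the left lungs. Lcn2 and Slpi, which epithelium also expresses, were the brightest of these markers in each right lung, so the sum does not stand for neutrophils alone. In pool 5 they were higher in the right lung (14.76 against 13.42 and 13.80 against 12.68), whereas S100a8 and S100a9 were lower (12.99 against 13.67 and 12.51 against 13.02).

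Among blood vessel genes the directions were mixed, 4 of 25 endothelial genes up and 5 down, and 3 of 16 genes of the VEGF, angiopoietin and apelin systems up and 5 down. Nos3, the nitric oxide synthase of endothelium, had a log2 intensity of 10.09, 11.01 and 10.10 in the right lungs, against 9.00, 8.87 and 9.02 in the left lungs, a rise of 1.44 (standard error 0.26, adjusted p = 4.22e-04). Agtrl1, the apelin receptor, had 6.70, 6.17 and 7.39 in the right lungs, against 8.77, 8.89 and 8.56 in the left lungs, a change of −1.99 (standard error 0.25, adjusted p = 1.88e-05). Neither gene overlapped between the lungs, and pool 5 showed the largest change of each. Esm1, which tip cells of growing vessels secrete, fell by 1.66, Angpt2, which loosens vessels, by 1.39 and Ednrb, an endothelin receptor, by 1.38. Vegfc, a lymphatic growth factor, rose by 0.93.

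Among epithelial genes, several of ciliated cells fell and several keratins rose. Of 17 genes of type II cells 3 rose and 1 fell, with a median of −0.11. Sftpc, surfactant protein C, had a change of −0.11 and Sftpb, surfactant protein B, rose by 0.61 (adjusted p = 6.34e-04), at 15.12, 15.13 and 15.10 in the right lungs, against 14.66, 14.37 and 14.50 in the left lungs. Without pool 5 none of the 17 was higher under the thresholds, Sftpb then standing at 0.53, below the fold threshold. Fabp5, a fatty acid carrier, fell by 0.88. Of 16 genes of type I cells 1 rose and 2 fell, and Emp2, a membrane protein of these cells, fell by 0.76 with ratios of −0.76, −0.78 and −0.72. Of 19 genes of club and ciliated cells 6 fell and 1 rose. Ccdc113 and Dnahc5 of the ciliary axoneme fell by 1.36 and 1.23, and Plunc, a secreted airway protein, rose by 1.26. Scgb1a1 of club cells had 15.57, 15.39 and 15.37 in the right lungs, against 15.26, 15.24 and 15.30 in the left lungs. Cyp2f2 of club cells had 15.39, 15.36 and 15.39, against 15.61, 15.70 and 15.64, so neither reached the fold threshold. Of 15 keratin and junction genes of injured epithelium 6 rose and 1 fell, Krt8 with 13.75, 14.44 and 13.91 in the right lungs, against 12.97, 13.11 and 13.10 in the left lungs. Krt8 rose by 0.97, Krt7 by 0.93 and Sfn, the stratifin of epithelium, by 2.20.

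The right lungs also carried transcripts of tissues that are not lung parenchyma. Of 30 genes of keratinised squamous epithelium, a list chosen after the values were seen, 28 were detected on all 3 right lung arrays and 4 on all 3 left lung arrays. Their summed intensity was 66976, 56981 and 74865 in the right lungs, against 1416, 1355 and 1289 in the left lungs. Dsg3 and Krt6a were not detected on any array. Rptn, a cornified envelope protein, rose by a log2 of 4.85 (standard error 0.76). Of 8 skeletal muscle genes 6 rose, with Tnni2, a fast troponin, at 12.82, 12.25 and 12.11 in the right lungs, against 8.29, 8.48 and 8.06 in the left lungs, and Mylpf, a fast myosin light chain, at a rise of 3.43. Of 6 fat cell genes 5 rose and of 8 mesothelial genes 7 rose, with Msln at 1.96 and Upk3b at 2.18. Of 12 cardiac muscle genes 4 rose and 0 fell, among them Myl3, a myosin light chain, by 3.16, the natriuretic peptide Nppa by 1.98 and the actin Actc1 by 1.43. The summed intensity of the cardiac list was 48969.5, 44249 and 28803 in the right lungs, against 26337, 24899 and 28439 in the left lungs. Myl2, another light chain on this list, was not detected on any of these arrays. Every right lung of the comparison carried these transcripts, so no array free of them could be tested alone. Their part in the changes of other genes was not tested. This holds for matrix, keratin, contractile and metabolic genes, and for Nppb, described next. Over all 36 arrays the squamous sum ranged from 2637 to 138916 in right lungs and from 1185 to 2542 in left lungs.

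**Figure D3:**
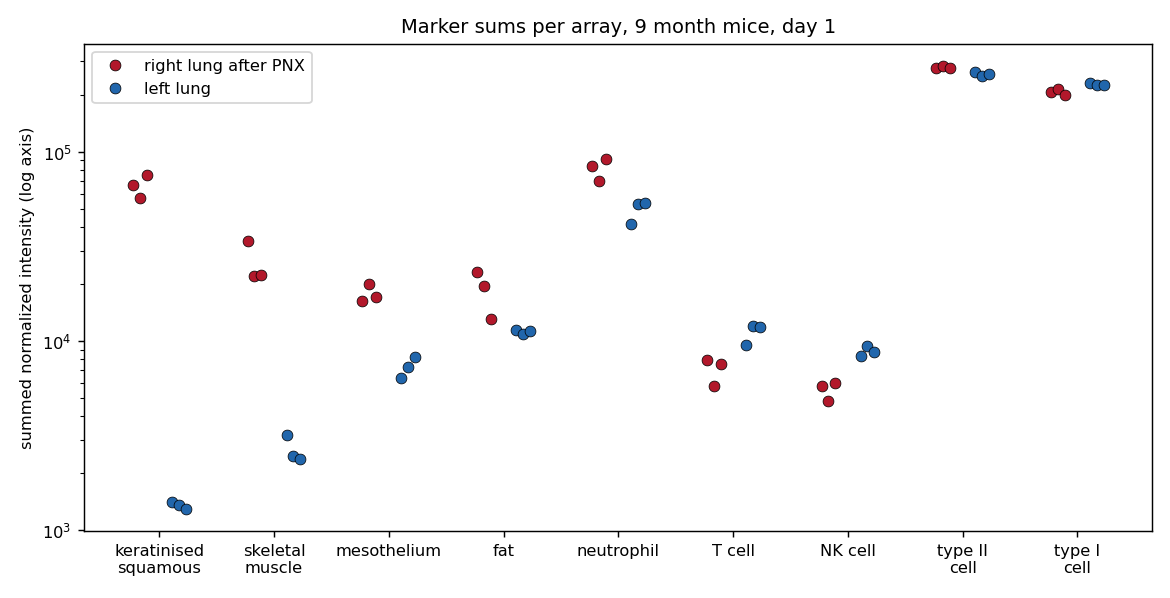
Summed normalized intensity of the listed markers of each cell type on a log axis, for the 3 right lungs after PNX (red) and the 3 left lungs (blue) of 9 month mice on day 1, a point per array. Squamous, skeletal muscle and mesothelial sums lay higher in every right lung, T and NK cell sums lower, and type II and type I cell sums differed little.

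The detection filter leaves out transcripts that 1 of the lungs lacks. Of 26368 probes detected on at least 3 of the 36 arrays, 405 were detected in all 3 right lungs and in none of the left lungs, and 153 the other way round. They were chosen by this difference, so no test is given for them. Fold changes of such probes are lower bounds against the lowest signal of any probe over background. Krt13, a keratin of mucosal squamous epithelium, was at least 211-fold higher in the right lungs, Krtdap at least 143-fold on its brighter probe and Krt4 at least 57.6-fold. Genes of other kinds in this class were Saa1, at least 6.42-fold higher on a probe detected in 6 of the 18 right lungs of the series and in 0 of the 18 left lungs, Adamts4, a proteoglycan-cleaving protease (at least 3.71-fold), and Nppb, the natriuretic peptide BNP and a member of the cardiac list (at least 4.64-fold), chosen for mention after their values were seen. A second Saa1 probe was detected in 13 right and 4 left lungs, with a bound of 1.17-fold. In the other direction were Gsg1l (at least 5.55-fold lower), Itgad, an integrin chain of leukocytes (at least 2.85-fold), and Cd160, a receptor of NK and T cells (at least 2.14-fold). A pair of probes of Actb, beta actin, was at least 14.1-fold and 12.1-fold lower, while 3 other probes of it changed by 0.003, 0.12 and 0.96, so the probes of this gene disagree and no direction is given for it.

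Among the genes that fell most were also Zbtb7a, a transcriptional repressor, with 8.37, 7.68 and 8.42 in the right lungs, against 10.69, 10.89 and 10.64 in the left lungs. Its change of −2.58 (standard error 0.18, adjusted p = 9.75e-08) was the largest fall among genes detected on all arrays. Lrat, which stores retinol as ester in stellate cells, had 8.49, 6.38 and 8.62 in the right lungs, against 10.07, 10.24 and 10.41 in the left lungs. Its change of −2.41 was carried unevenly, with ratios of −1.58, −3.86 and −1.79 in pools 4, 5 and 6. Scube2, a secreted partner of Hedgehog signalling, fell by 2.21. Of the genes that rose, Slc26a4, the anion exchanger pendrin of airway epithelium, stood at 2.43.

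The response of 9 month mice was next set against that of 3 month mice on the same day. The log2 ratio differed between the ages for 60 probes (0.380%), and it was larger in 9 month mice for 42 (0.266%) and smaller for 18 (0.114%). Without pool 5 the count was 4. With the deposited log2 values of the authors in place of the intensities, 70 were larger and 53 smaller, against the mean of the 9 left lungs of each age 176 and 147, and with the 6 pools of day 1 alone 1 was larger and 4 were smaller, so the balance of larger and smaller was not stable. Of the 42, 35 had 9 month right lungs all above 3 month right lungs (2053 of all 15795 probes did), and 23 had 9 month left lungs all below 3 month left lungs (1500 of all). Of the 18, 17 had 9 month right lungs all below 3 month right lungs (2284 of all), and 7 had 9 month left lungs all above 3 month left lungs (1465 of all). These counts describe probes that were chosen by the same levels and are no test. The squamous sum was 106826 to 110558 in the day 1 right lungs of 3 month mice and 56981 to 74865 in those of 9 month mice. The skeletal muscle sum was 58937 to 92419 against 21994 to 33908. The mesothelial sum went the other way, at 14847 to 15404 against 16271 to 19959. The part of these tissues in the age differences was not tested.

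Adamts9 had a log2 intensity of 11.41, 11.94 and 11.75 in 9 month right lungs, against 9.94, 10.00 and 10.36 in their left lungs. In 3 month mice it had 10.99, 10.99 and 10.86 in the right lungs, against 11.06, 11.14 and 11.48 in the left lungs. The right lungs were higher and the left lungs lower at 9 months, and the difference in response was 1.88 (standard error 0.22, adjusted p = 0.00194), which held without pool 5 (1.71, adjusted p = 0.0232). Plat had 11.47, 10.94 and 11.36 in the right lungs of 3 month mice, against 10.58, 10.81 and 10.80 in their left lungs. Its left lungs were therefore close to those of 9 month mice, and its response was larger in 9 month mice by 2.02 (95% interval 1.33 to 2.71, adjusted p = 0.0244). Cdkn1a had 11.45, 11.13 and 11.46 in the right lungs of 3 month mice, against 10.76, 11.21 and 11.25 in their left lungs, and its response was larger at 9 months by 1.89 (adjusted p = 0.0287). The same direction held for Adamts15 (1.58), Sema7a, a membrane semaphorin (1.83), Pvr, the poliovirus receptor (1.64), Spry4, an inhibitor of FGF signalling (1.56), Col18a1 (1.31), Fbn1 (1.18) and Loxl1 (1.01). Without pool 5 none of Plat, Cdkn1a and these 7 passed, with adjusted p between 0.172 and 0.192.

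For collagen and elastin the difference in response missed the threshold. Col1a1 had 12.35, 12.24 and 12.50 in the right lungs of 3 month mice, against 10.63, 10.25 and 10.63 in their left lungs. Both lungs were thus higher at 3 months, the left lungs more so, and the response differed by 0.96 (95% interval 0.35 to 1.56, adjusted p = 0.132). For Eln the difference was 1.27 (95% interval 0.61 to 1.92, adjusted p = 0.0777). Over the 11 interstitial collagens the median response was 1.13 in 9 month mice and 0.59 in 3 month mice, and none passed the test of the difference.

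Several neutrophil genes had a smaller log2 ratio in 9 month mice. The median of the list was 0.24 in 9 month mice and 1.85 in 3 month mice, and 3 of 13 passed the test of the difference, S100a9 by −2.12 (adjusted p = 0.0263), Clec4d, a lectin receptor, by −2.22 (adjusted p = 0.00298) and Mmp9 by −1.82 (adjusted p = 0.0358). S100a9 had 13.39, 13.49 and 13.38 in the right lungs of 3 month mice, against 11.52, 10.85 and 10.80 in their left lungs. Left lungs of 9 month mice, at 12.61 to 13.02, lay above those of 3 month mice, and the right lungs of the ages overlapped. Clec4d had 9.13, 8.87 and 9.53 in the right lungs of 9 month mice, against 8.40, 8.86 and 8.98 in their left lungs. In 3 month mice it had 9.79, 9.61 and 10.82 in the right lungs, against 7.57, 6.76 and 7.95 in the left lungs, so that the ages differed in each lung and in opposite directions. Ednrb fell by 1.38 in 9 month mice with a response of −0.32 in 3 month mice, a difference of −1.06 (adjusted p = 0.0287), and Spnb1, the erythroid spectrin, and Fabp5 differed by −2.08 and −0.95. Without pool 5 Clec4d still passed (adjusted p = 0.0345), and S100a9, Mmp9, Ednrb, Spnb1 and Fabp5 did not.

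**Figure D4:**
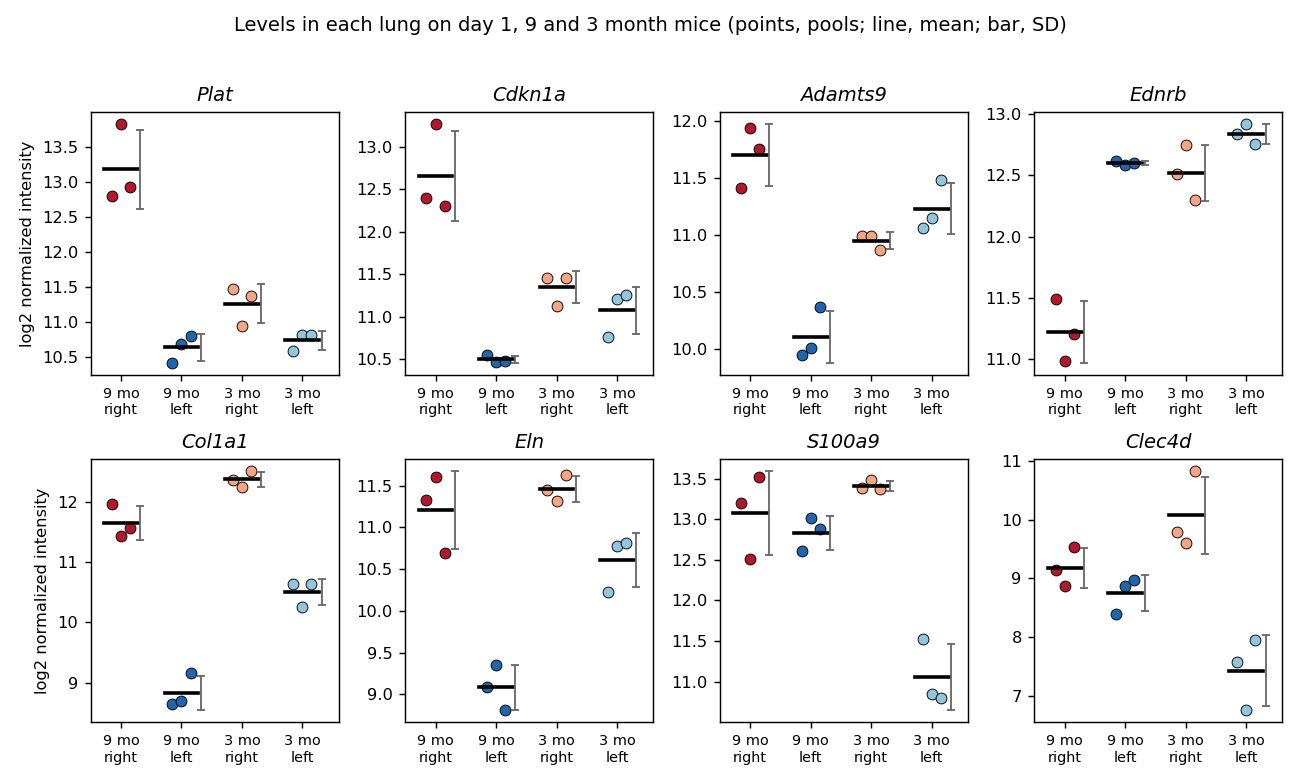
Log2 normalized intensity of 8 genes on day 1 in right and left lungs of 9 month mice (dark points) and 3 month mice (pale points), with a point per pool, a line at the mean and a bar of 1 SD. For Plat and Cdkn1a the 9 month right lungs stand above all others, whereas for S100a9 the 3 month left lungs stand below all others.

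The day 1 response of 9 month mice was also compared with the response of other 9 month mice on day 3 and day 7. Each day had its own pair of chips, so day and chip cannot be told apart. The 75th percentile of intensity in 9 month left lungs was 126 to 170 for day 1, 188 to 197 for day 3 and 237 to 297 for day 7. It differed from day 3 for 619 probes (3.92%), with a log2 ratio that was higher on day 1 for 238 (1.51%) and lower for 381 (2.41%), and from day 7 for 2274 (14.4%), 1140 higher (7.22%) and 1134 lower (7.18%). Without pool 5 the counts were 277 and 1375. The squamous sum ranged from 2637 to 54294 in the right lungs of day 3 and from 11127 to 137965 in those of day 7. The skeletal muscle sum of 9 month right lungs was 21994 to 33908 on day 1, 1866 to 34294 on day 3 and 31745 to 59339 on day 7. On those days the cardiac sum was 28803 to 48969.5, 16566 to 26660.5 and 31440 to 45230. The fat sum was 13089 to 23087, 12093 to 16297 and 15589 to 24306. The mesothelial sum was 16271 to 19959, 16078 to 22086 and 22797 to 27030. The part of these tissues in the day differences was not tested.

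All 12 mitosis genes had a lower log2 ratio on day 1 than on day 3 and than on day 7, and the medians were −0.10, 2.49 and 2.43 on days 1, 3 and 7. Mki67 stood at 0.18, 3.09 and 2.46 on those days, and day 1 differed from day 3 by −2.91 (standard error 0.24, adjusted p = 2.9e-06). The differences from day 3 were −3.49 for Spag5, −3.32 for Prc1, −3.28 for Birc5, −2.86 for Cdc2a and −2.77 for Top2a, all proteins of the mitotic spindle, cytokinesis or entry into mitosis except the topoisomerase. Of the 22 replication genes 13 were lower on day 1 than on day 3, with medians of 0.40, 1.53 and 0.91 over the days. Agtrl1 stood at −1.99, 0.43 and 0.16, and day 1 differed from day 3 by −2.42.

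Of the 11 interstitial collagens 1 had a higher and 2 had a lower log2 ratio on day 1 than on day 3, and 0 had a higher and 4 had a lower one than on day 7. The median of the interstitial collagens was 1.13, 1.43 and 1.25 on days 1, 3 and 7. Col1a2 stood at 0.60, 1.67 and 1.74, and day 1 differed from day 3 by −1.07 (adjusted p = 0.00780) and from day 7 by −1.13. Eln stood at 2.12, 2.93 and 3.12, lower on day 1 than on day 7 (adjusted p = 0.0334), which did not hold without any one of pools 4, 5 and 6 (adjusted p between 0.0561 and 0.105). Col1a1 stood at 2.82, 3.41 and 3.17, with a day 1 minus day 3 difference of −0.59 (adjusted p = 0.249). Lox was highest on day 1, at 2.36, 1.92 and 0.74, a day 1 minus day 7 difference of 1.63 (adjusted p = 0.00672). Mmp3, at 1.96, 1.17 and 0.29, differed from day 7 by 1.67. Against the mean of the 9 left lungs neither passed, with differences of 0.49 for Lox (adjusted p = 0.199) and 0.80 for Mmp3 (adjusted p = 0.0698).

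Several inflammatory and metabolic genes had their highest ratio on day 1. Plat stood at 2.55, 0.90 and 0.27 on days 1, 3 and 7, and day 1 differed from day 3 by 1.64 (adjusted p = 0.00855) and from day 7 by 2.27. Serpina3n stood at 2.45, 1.48 and 0.50, with differences of 0.96 and 1.94. Angptl4 stood at 2.50, 1.26 and −0.17 and Pdk4 at 2.45, 0.60 and −0.12, and day 1 differed from day 7 by 2.67 (adjusted p = 0.00335) and 2.57. Hif1a differed from day 7 by 1.95 and Cdkn1a by 1.74. Calca, which encodes the peptide CGRP, Tinagl, a basement membrane protein, and the filamin Flnc were higher on day 1 than on day 3 by 1.71, 1.96 and 1.59, Adamts15 by 1.20 and Actg2 by 1.06. Without pool 5 the day 3 differences of Plat, Serpina3n, Tinagl, Flnc, Adamts15 and Actg2 and the day 7 difference of Hif1a no longer passed, with adjusted p between 0.0532 and 0.112. Trem2, a receptor of tissue macrophages, went the other way, at 0.48, 1.51 and 2.24, a day 1 minus day 7 difference of −1.76. Cav2, caveolin 2, stood at 0.01 on day 1 and −2.41 on day 7, a difference of 2.42.

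**Figure D5:**
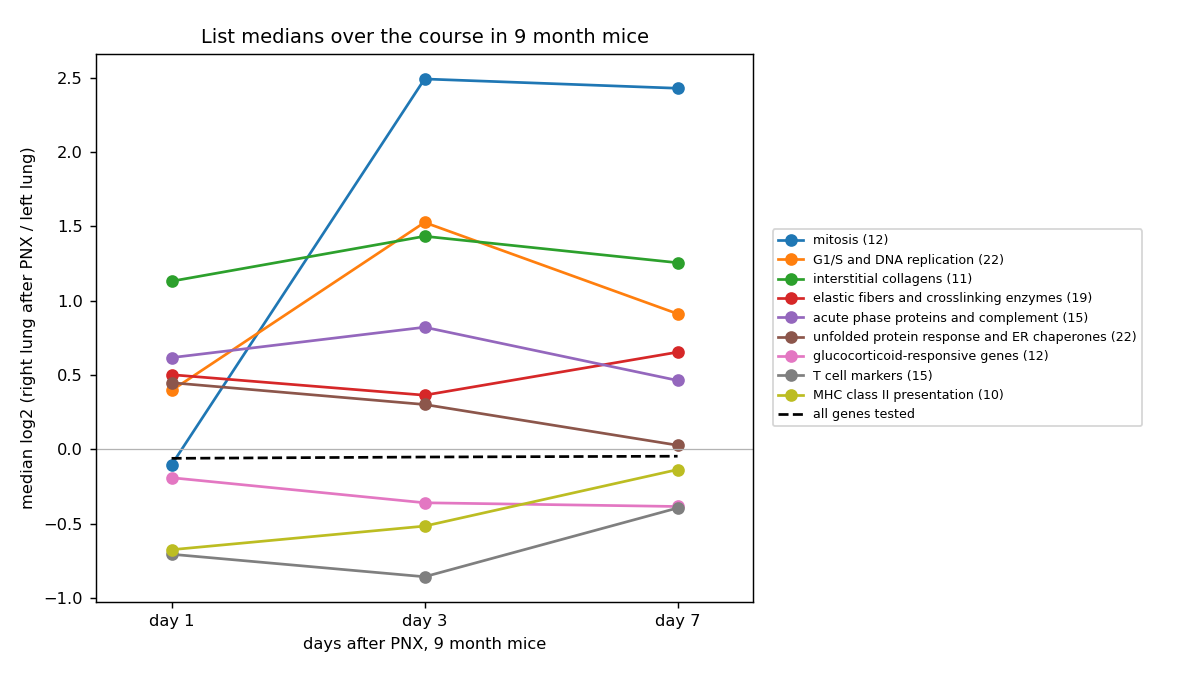
Median log2 ratio of right lung after PNX to left lung over the tested genes of 9 lists on days 1, 3 and 7 in 9 month mice, with the number of genes in parentheses and the median of all genes as a dashed line. The mitosis median was −0.10 on day 1 and 2.49 on day 3, whereas the interstitial collagen median was 1.13 on day 1 and 1.43 on day 3.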

How the data were processed

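Total RNA of right lungs after PNX and of left lungs from the same mice, 2 mice per pool, was measured on 36 BeadChip arrays. The file deposited by the authors held, for each array, the intensity of each probe averaged over its beads without normalization, the p-value of detection against negative controls, the count of beads and the standard error of the signal over beads. A background had been subtracted upstream, since some deposited intensities are below 0. The other table, deposited by the authors, held log2 values made with lumi by RMA background correction and quantile normalization, and served as an alternative. The submitters' processing notes name RMA, lumi and limma, and their versions are not given in the sources used here.

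Intensities were corrected with normexp using the detection p-values (offset 16), quantile normalized and log2 transformed in limma 3.58.1 (R 4.3.3). Of 45281 probes, the 15795 detected (p under 0.05) on every one of the 36 arrays were kept. The log2 ratio of right over left lung of each pool was fitted over 18 pools in 6 groups of age and day that share an estimate of the spread. Calls needed a Benjamini-Hochberg adjusted p under 0.05 and a response of at least 1.5-fold, for differences in at least 1 of the groups compared. Each printed adjusted p is from limma over all probes kept. The pairing comes from the animals, whose lungs share a pool number. The correlations of left and right deviations were 0.05, 0.03 and 0.02 in pools 4, 5 and 6, so the lungs of a pool hardly deviated together. On simulated data of 15795 probes, changes of log2 1 and 2 were recovered for 89% and 99% of probes in the day 1 response, with 7 unchanged probes called, and for 66% and 97% in the age difference, with 1 called. The simulated noise was normal, independent between probes and of the same spread in all groups. Far fewer probes were changed than were called on the arrays, so these shares hold for that setting only.

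Genes were taken as symbols in the deposited annotation, 30789 in all, of which 21841 matched RefSeq. Where several probes were kept, the probe with the highest mean stood for the gene. Named genes were the 20 per direction with the largest ratio among called genes of the same sign in all 3 pools, up to 8 per list with the smallest p, the 10 genes of the study's PCR panel, the 10 per direction with the largest called differences, and the 10 per direction with the largest bounds. Predicted and clone names were skipped, and some genes of the lists are not reported here. Members and lists were chosen with earlier results of these data known. Bounds for probes detected in 1 lung only take the lowest signal among probes over background. Alternatives were other background corrections, scalings, filters, baselines and sample sets, the deposited log2 values, the fit without pairing and leaving out pool 4, 5 or 6 in turn.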

Additional observations from a re-analysis of the deposited data

Results flagged for a closer look

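The results here were singled out because the response of 9 month mice on day 1 differed from that of another age or day by a test of the difference itself (limma contrast of log2 ratios, Benjamini-Hochberg adjustment). No explanation was weighed.

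Between 9 month and 3 month mice on day 1 the response differed for 60 probes. The difference of log2 ratios, 9 month minus 3 month, was 2.02 for Plat, 1.89 for Cdkn1a, 1.88 for Adamts9, 1.83 for Sema7a, 1.64 for Pvr, 1.58 for Adamts15, 1.56 for Spry4, 1.31 for Col18a1, 1.18 for Fbn1 and 1.01 for Loxl1. It was −2.22 for Clec4d, −2.12 for S100a9, −2.08 for Spnb1, −1.82 for Mmp9, −1.06 for Ednrb and −0.95 for Fabp5.

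Between day 1 and day 3 the response of 9 month mice differed for 619 probes. Day 1 minus day 3 was −3.49 for Spag5, −3.32 for Prc1, −3.28 for Birc5, −2.91 for Mki67, −2.86 for Cdc2a, −2.77 for Top2a, −2.42 for Agtrl1 and −1.07 for Col1a2. It was 1.96 for Tinagl, 1.71 for Calca, 1.64 for Plat, 1.59 for Flnc, 1.20 for Adamts15, 1.06 for Actg2 and 0.96 for Serpina3n.

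Between day 1 and day 7 it differed for 2274 probes. Day 1 minus day 7 was 2.67 for Angptl4, 2.57 for Pdk4, 2.42 for Cav2, 2.27 for Plat, 1.95 for Hif1a, 1.94 for Serpina3n, 1.74 for Cdkn1a, 1.67 for Mmp3 and 1.63 for Lox, and −2.28 for Mki67, −1.76 for Trem2, −1.13 for Col1a2 and −0.996 for Eln.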

How the results depend on the processing

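The day 1 response gave 3423 called probes and between 2749 and 4917 under the alternatives, except 2059 with the deposited log2 values (2047 of them shared) and 6287 with no fold threshold. Leaving out pool 4, 5 or 6 gave 3019 to 3446. No called value of a gene run under the alternatives changed sign. The medians of several lists did, among them the cytokine and glucocorticoid lists, with ranges of −0.20 to 0.15 and −0.28 to 0.11. Others were interferon-stimulated genes (−0.18 to 0.33), immediate early genes (−0.35 to 0.13) and monocyte and macrophage markers (−0.13 to 0.28). Not all lists whose median changed sign are named here. The median over all probes stayed between −0.07 and −0.01.

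The age difference, 60 probes, depended on most choices. It came to 32 with scaling to the 75th percentile, 123 with the deposited log2 values, 96 with a detection p under 0.01, 6 with detection on at least 3 arrays, 7 with no detection filter, 323 against the mean of the 9 left lungs of each age and 5 (1 larger and 4 smaller) with the 6 pools of day 1 alone. Without the replicate block, that is without pairing the lungs of a pool, 174 probes were called. With the 1.5-fold rule, the methods' t-test gave 717 at an unadjusted p under 0.05 and 0 after adjustment. By limma, 60 passed the same fold rule after adjustment. Without the fold rule, 2258 probes had an unadjusted p under 0.05 by limma, a count that is not comparable with 717. Leaving out pool 4, 5 or 6 gave 4 to 82, the lowest without pool 5, and pools of the other groups were not left out. With detection on at least 3 arrays, with more probes tested, the adjusted p of Plat was 0.0582 and that of Cdkn1a 0.0727.

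The day 3 difference (619) was 936 against the mean of the left lungs, 207 with the 6 pools of the days compared, and 277 to 515 leaving out pool 4, 5 or 6. The day 7 difference (2274) was 1375 to 1964 leaving out pool 4, 5 or 6. Of the probes detected in right lungs only, 63 of 405 were undetected on all 18 left lung arrays, and of those in left lungs only, 13 of 153 on all 18 right lung arrays. Over single genes, 946 of 963 values of the day 1 response kept their call, 131 of 192 of the age difference, 163 of 177 for day 3 and 144 of 154 for day 7. Sftpb fell under the fold threshold with scaling to the 75th percentile (0.44), and Hspa5 with the deposited log2 values (0.50) and against the mean left lung (0.54). The causes were not tested.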
